A study of Mus musculus with 12 samples.

Results

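The genes described here are 40 mitosis and proliferation genes, taken as the rows of a fixed list of symbols. The list was chosen with earlier results of these data known. Counts among its genes set beside shares of all genes are thus a description and not a test. All 40 were found among the 47729 genes of the count table, and all 40 had enough reads to be among the 15336 genes tested. RNA from hearts of male C57BL/6 mice, aged 8 weeks at the start, was sequenced in 12 libraries, 3 in each of 4 groups. Subcutaneous pumps delivered Ang II (angiotensin II, the pressor hormone known to drive cardiac fibrosis) or saline for 28 days. In the last 2 weeks, 1 Ang II group also received EHP-101 by mouth at 20 mg/kg (Ang II + EHP-101) and another received Losartan at 0.6 g/L in the drinking water (Ang II + Losartan), while a further Ang II group received vehicle (Ang II). EHP-101 is known as an agonist of the receptors PPARγ and CB2, and losartan is a blocker of the Ang II receptor AT1. The Control group was taken as the saline animals, although its sample titles add the phrase Ang II control. The labels do not state that replicates came from separate animals, so a p-value here reflects only sample-to-sample spread, and that spread may be technical. The 6 comparisons share groups with each other, and each is therefore described by its own values.

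Mitosis genes are transcribed together late in the cell cycle. CDK1 with cyclins A and B starts mitosis, the kinetochore and spindle hold and move the chromosomes, the spindle checkpoint restrains the anaphase-promoting complex until every chromosome is attached, and the central spindle and contractile ring then divide the cell. Adult cardiomyocytes seldom divide, and in a heart under pressure the dividing cells are known to be largely fibroblasts, endothelial cells and immune cells. In whole tissue, fewer cells of a type and less RNA per cell cannot be told apart.

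Libraries held 22155418 to 24040516 counts, of which 2098 to 5235 fell on the 40 genes. Levels are CPM, the usual depth-scaled read count, computed on TMM-scaled library totals, and each SD covers the 3 libraries of 1 group. Cardiomyocyte markers were detected in every library, with summed levels of 61800 to 88900 CPM. Control replicate 2 stood apart from the other 11 libraries on the first principal component of all tested genes, at -84.4 against -12.7 to 32.4. Medians for the comparisons with Control, and the counts of genes lowest under EHP-101, are also given without it. Sums, highest group means and correlations include it in all cases. Of the 40 genes, 12 share exon bases with another annotated gene, and because the kit did not mark strand, reads from such a pair cannot be told apart and these levels are uncertain. The largest shares were 29.3% for Kif20a, with Cdc23, and 22.8% for Ube2c, with Tnnc2.

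The EHP-101 hearts had the lowest levels of mitosis transcripts. The mean of the Ang II + EHP-101 group was the lowest of the 4 group means for 39 of the 40 genes, against 23.7% of all tested genes. The 40th gene, Cenpa, was lowest in the Ang II group. For 13 genes all 3 EHP-101 libraries lay below the other 9, against 1.14% of all tested genes. These 13 were Mki67, Top2a, Ccna2, Ccnb2, Cdk1, Bub1, Aurkb, Kif20a, Kif23, Nusap1, Cdca8, Racgap1 and Ncapg. Leaving out EHP-101 replicate 1 gave 39 and 13 genes, against 26.6% and 2.84% of all. Leaving out EHP-101 replicate 3 gave 38 and 25, against 26% and 2.98%, and leaving out Control replicate 2 gave 37 and 13, against 25.3% and 1.53%. The highest group mean was in the Ang II group for 21 genes, in the Control group for 15 and in the Ang II + Losartan group for 4. By the quasi-likelihood F test of edgeR, with p-values adjusted over all genes by Benjamini-Hochberg, 0 of the 40 passed an adjusted p of 0.05 in any of the 6 comparisons between groups or in the test of any difference among the 4 groups, so the lower levels are given as values and counts.

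**Figure D1:**
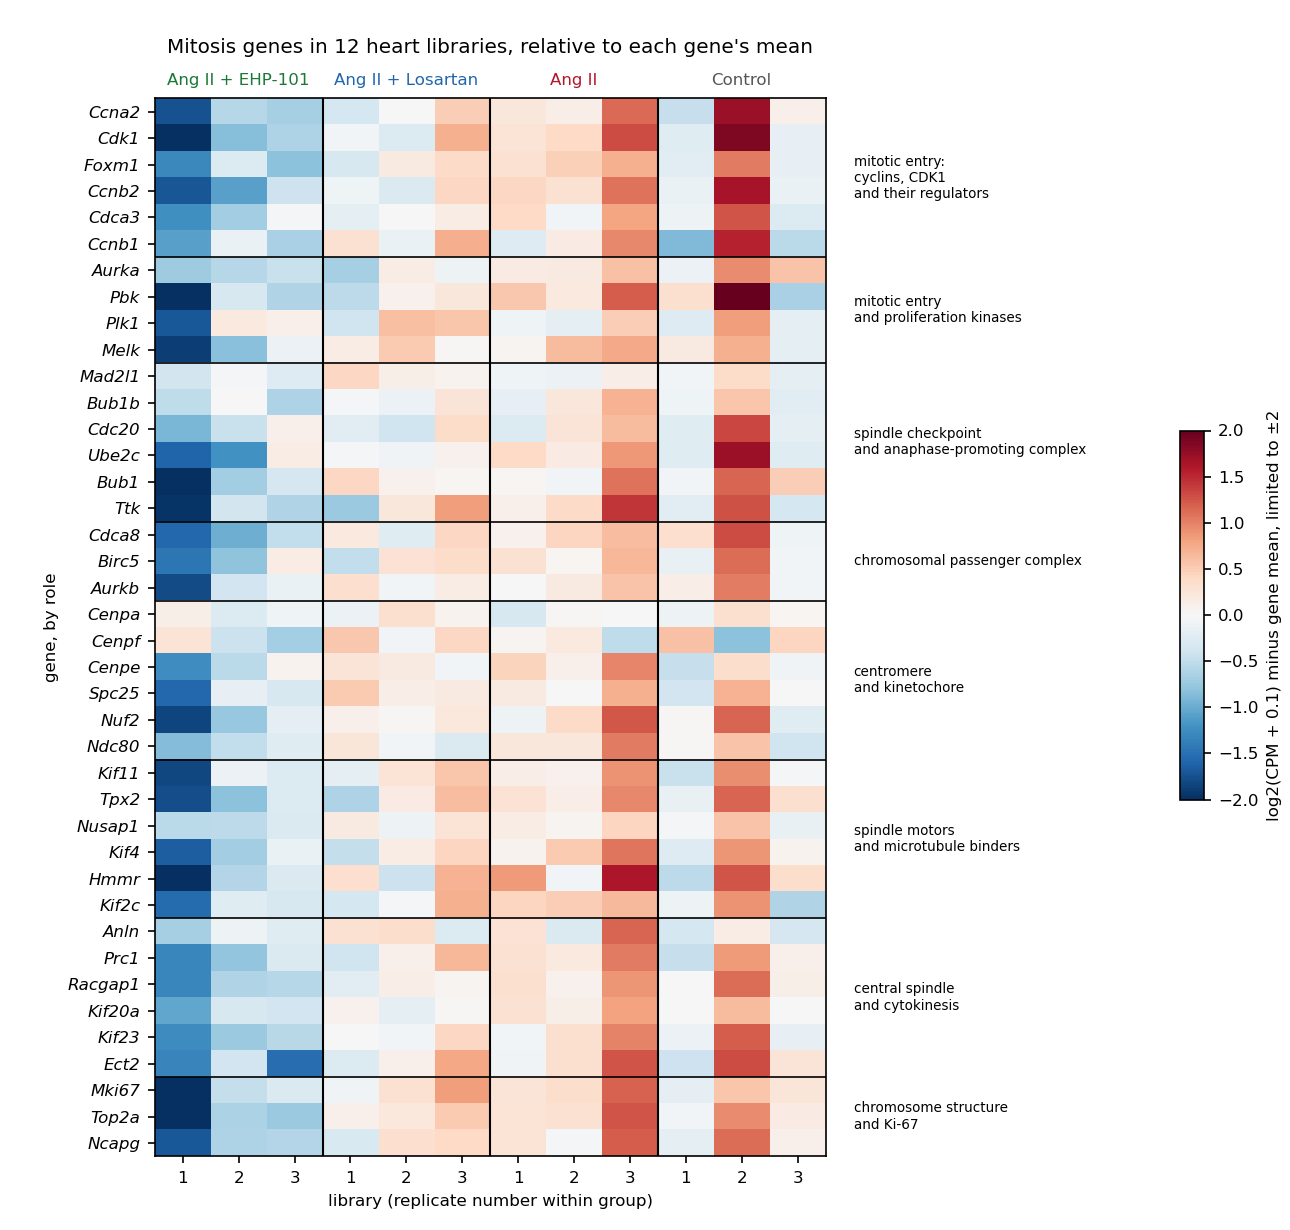
Levels of the 40 genes in the 12 libraries, shown as log2(CPM + 0.1) minus each gene's mean over all libraries, with colours limited to ±2 and genes grouped by role. EHP-101 replicate 1 is the bluest column, with 36 genes at their lowest value, Control replicate 2 holds the highest value of 22 genes and Ang II replicate 3 that of 15.

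Set against Ang II alone, EHP-101 gave a negative log2 fold change for 39 of the 40 genes, where 50.0% of all tested genes had one. The median was -1.31, against 0.00 over all tested genes. At an adjusted p under 0.05 edgeR called 0 of the 40 genes and 0.0% of all genes. At an unadjusted p under 0.05, 33 of the 40 were lower, against 5.11% of all genes. The libraries did not overlap, with EHP-101 lower, for 30 genes, against 9.74% of all, and with EHP-101 higher for 0, against 7.01%, and 29 genes had a log2 fold change of -1 or less, against 2.74%. The 7 genes with a larger unadjusted p were Ccnb1, Cdc20, Plk1, Mad2l1, Birc5, Cenpf and Cenpa. In DESeq2 34 of the 40 had an unadjusted p under 0.05 and Top2a alone was called, and in limma-voom 34 had one and 0 were called. Among all genes 1215 and 1093 had such a p in these fits, in either direction, and 60 and 0 were called. In edgeR the count of the 40 at that p dropped to 20 without EHP-101 replicate 1 and to 16 without Ang II replicate 3. The medians were -1.04 and -1.03, and 954 and 590 of all genes had such a p, in either direction. The 40 genes varied together across libraries, with a median pairwise correlation of 0.84. Counts among them, here and in the other comparisons, are therefore not separate results.

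Many of the genes, though not all, hold the same short promoter sequence. Many late cell-cycle promoters carry a cell cycle genes homology region, TTTGAA, at which the DREAM complex is known to bind in resting cells and complexes with FOXM1 or B-MYB in dividing cells, often together with CCAAT boxes, which bind NF-Y. RefSeq start sites (GRCm38.p6) were matched for 34 of the 40 genes and gave 36 windows of 300 bases, 250 before to 50 after the start. On either strand, TTTGAA was present for 26 of the 34 genes, in 28 of the 36 windows (77.8%), against 17.9% of all 32851 windows, CCAAT in 77.8% against 37.4%, and both in 69.4% against 6.95%. The variant TTCGAA was present in 8.33% of the windows, against 1.56% of all. Prc1 and Ect2 each have a pair of overlapping windows that share their matches. The 8 matched genes without TTTGAA were Nuf2, Nusap1, Bub1, Cenpe, Melk, Mad2l1, Birc5 and Ccnb1. Their log2 fold changes for EHP-101 against Ang II alone were, in this order, -1.58, -0.69, -1.55, -1.09, -1.54, -0.20, -0.99 and -1.18. Whether a match goes with the size of the change was not tested. Within 75 bases before to 50 after the start, 72.2% of the windows held TTTGAA, against 6.3% of all windows.

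**Figure D2:**
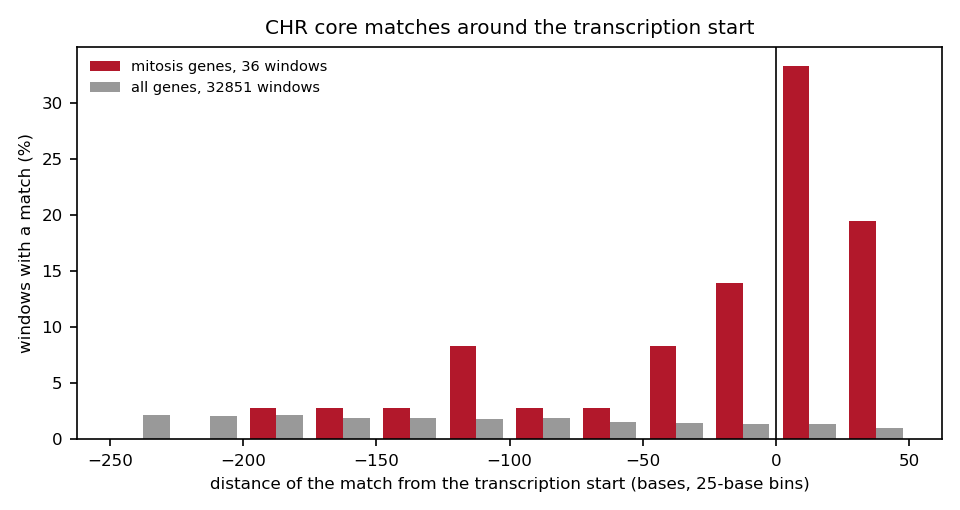
Share of promoter windows with a match to the cell cycle genes homology core, by 25-base bins of distance from the transcription start, for the 36 windows of the mitosis genes (red) and all 32851 windows (grey). In the first 25 bases after the start 33.33% of the mitosis windows had a match, against 1.31% of all.

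Promoters of 5 genes are printed to set 3 genes whose EHP-101 libraries lay below all others (Cdk1, Ccnb2 and Top2a) beside 2 whose group means differed little (Cenpa and Mad2l1). For Mad2l1 the EHP-101 libraries still lay below all losartan libraries, at group means of 3.83 and 5.16 CPM. The 5 genes were chosen with the levels known, and other genes, such as Pbk, Hmmr and Ttk, had group means as far apart. Capitals mark TTTGAA and TTCGAA on either strand, and positions run from -1 before the start to 1 at its first base. Cdk1 (chr10:69352863-69353162, minus strand) has TTTGAA at -71 and -15, Ccnb2 (chr9:70421505-70421804, minus strand) at -167 and 5, and Top2a (chr11:99024140-99024439, minus strand) at -179 and, on the opposite strand, at -23. Cenpa (chr5:30666636-30666935, plus strand) has it at 17, and the window of Mad2l1 (chr6:66534971-66535270, plus strand) holds neither form. The Mad2l1 window follows the RefSeq start and ends before the gene's first base in the GENCODE M21 annotation, 66535390.
Cdk1: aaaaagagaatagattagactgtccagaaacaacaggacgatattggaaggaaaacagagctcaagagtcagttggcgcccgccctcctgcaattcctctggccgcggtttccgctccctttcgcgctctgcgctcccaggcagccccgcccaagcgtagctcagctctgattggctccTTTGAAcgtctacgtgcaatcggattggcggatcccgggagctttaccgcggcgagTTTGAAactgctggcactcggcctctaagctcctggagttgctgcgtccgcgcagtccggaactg
Ccnb2: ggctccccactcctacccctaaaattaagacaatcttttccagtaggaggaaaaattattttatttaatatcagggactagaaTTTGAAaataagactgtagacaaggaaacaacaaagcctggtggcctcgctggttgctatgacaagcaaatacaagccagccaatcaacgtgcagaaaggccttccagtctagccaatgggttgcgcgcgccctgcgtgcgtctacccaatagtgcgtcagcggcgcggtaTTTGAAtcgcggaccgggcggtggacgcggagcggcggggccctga
Top2a: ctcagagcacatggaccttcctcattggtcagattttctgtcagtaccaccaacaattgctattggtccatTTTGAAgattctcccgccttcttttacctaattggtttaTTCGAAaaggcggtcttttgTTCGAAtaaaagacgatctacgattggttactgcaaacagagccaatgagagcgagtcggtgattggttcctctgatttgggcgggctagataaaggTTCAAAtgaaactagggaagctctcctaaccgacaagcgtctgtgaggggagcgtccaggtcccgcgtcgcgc
Cenpa: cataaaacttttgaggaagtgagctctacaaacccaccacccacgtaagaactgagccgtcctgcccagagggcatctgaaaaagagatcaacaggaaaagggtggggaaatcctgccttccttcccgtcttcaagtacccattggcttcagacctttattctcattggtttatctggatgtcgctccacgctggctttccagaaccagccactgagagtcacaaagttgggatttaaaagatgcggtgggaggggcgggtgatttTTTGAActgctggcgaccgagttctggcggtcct
Mad2l1: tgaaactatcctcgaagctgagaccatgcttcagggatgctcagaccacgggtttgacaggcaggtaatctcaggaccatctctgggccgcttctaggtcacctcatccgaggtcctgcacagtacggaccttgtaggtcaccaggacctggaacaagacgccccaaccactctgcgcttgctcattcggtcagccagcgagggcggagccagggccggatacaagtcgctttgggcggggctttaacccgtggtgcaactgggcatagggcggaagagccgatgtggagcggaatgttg
A match describes the letters in a window and says nothing of whether a factor was bound there in these hearts.

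Among the 6 genes of mitotic entry, cyclin A2 and CDK1 had the highest levels. Ccna2, the cyclin of S phase and early mitosis, had 0.634, 1.54 and 1.44 CPM in the EHP-101 hearts, 1.81, 2.34 and 3.33 CPM in the losartan hearts, 2.77, 2.58 and 5.28 CPM in the Ang II hearts, and 1.67, 7.97 and 2.54 CPM in the Control hearts. Cdk1, the kinase that drives entry into mitosis, had 0.296, 1.03 and 1.23 CPM in the EHP-101 hearts, 1.86, 1.59 and 3.25 CPM in the losartan hearts, 2.35, 2.58 and 4.95 CPM in the Ang II hearts, and 1.63, 7.32 and 1.71 CPM in the Control hearts. For both genes the 3 EHP-101 libraries overlapped no other group, and Control replicate 2 was far above the other Control libraries for both. Relative to the Ang II group, the log2 fold change was -1.96 ± 0.64 (SE) for Cdk1, with an adjusted p of 0.469 in edgeR, and -1.56 ± 0.55 for Ccna2, with an adjusted p of 0.526. The mitotic cyclins Ccnb2 and Ccnb1, the transcription factor Foxm1 and Cdca3, a promoter of mitotic entry, had log2 fold changes of -1.78, -1.18, -1.31 and -1.09. Ccnb1 had an unadjusted p of 0.124 and the other 5 genes had one under 0.05. The median log2 fold change of all 6 was -1.44.

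Aurora A and PBK were the most abundant of the 4 mitotic kinases. Aurka, which matures centrosomes and builds the spindle, had 0.719, 0.795 and 0.876 CPM with EHP-101, 0.744, 1.38 and 1.14 CPM with losartan, 1.4, 1.41 and 1.91 CPM with Ang II alone, and 1.13, 2.48 and 1.88 CPM in the Control hearts. Pbk, a kinase active in mitosis, had 0.0423, 0.608 and 0.482 CPM with EHP-101, 0.511, 0.836 and 0.928 CPM with losartan, 1.18, 0.914 and 1.95 CPM with Ang II alone, and 1.0, 3.77 and 0.459 CPM in the Control hearts. The EHP-101 libraries were below all Ang II libraries for both, while losartan replicate 1 lay among the EHP-101 libraries. Relative to Ang II alone, EHP-101 gave a log2 fold change of -0.98 ± 0.33 for Aurka and -1.84 ± 0.77 for Pbk, with edgeR adjusted p of 0.494 and 0.623. Melk, a kinase of proliferating cells, had -1.54, with an unadjusted p of 0.00821, and the mitotic kinase Plk1 had -0.42, with an unadjusted p of 0.444.

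Among 6 genes of the spindle checkpoint and the anaphase-promoting complex the median log2 fold change was -0.99. Mad2l1 (MAD2), which holds back the complex until chromosomes are attached, had 3.43, 4.35 and 3.72 CPM in the EHP-101 group, 5.95, 4.85 and 4.68 CPM in the losartan group, 4.21, 4.11 and 4.87 CPM in the Ang II group, and 4.3, 5.76 and 3.92 CPM in the Control group. Bub1b (BUBR1), its partner in the checkpoint, had 1.95, 2.81 and 1.79 CPM in the EHP-101 group, 2.74, 2.59 and 3.37 CPM in the losartan group, 2.51, 3.32 and 4.61 CPM in the Ang II group, and 2.63, 4.2 and 2.42 CPM in the Control group. For both genes EHP-101 and Ang II libraries overlapped, and the log2 fold changes were -0.20 ± 0.19 and -0.68 ± 0.29. The checkpoint kinases Bub1 and Ttk had larger differences, -1.55 and -1.98. Cdc20, which activates the complex, had -0.65 with an unadjusted p of 0.18, and Ube2c, its ubiquitin-conjugating enzyme, had -1.31 with an unadjusted p of 0.0478.

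The chromosomal passenger complex, which corrects attachment errors and then acts at the site of division, was represented by Aurkb and its partners borealin (Cdca8) and survivin (Birc5). Cdca8 had 0.338, 0.561 and 0.832 CPM with EHP-101, 1.39, 1.0 and 1.64 CPM with losartan, 1.29, 1.66 and 1.91 CPM with Ang II alone, and 1.54, 3.12 and 1.13 CPM in the Control hearts. Birc5 had 0.381, 0.655 and 1.36 CPM with EHP-101, 0.837, 1.51 and 1.6 CPM with losartan, 1.52, 1.25 and 1.99 CPM with Ang II alone, and 1.09, 2.74 and 1.17 CPM in the Control hearts. Cdca8 in the EHP-101 hearts was below every other library, whereas for Birc5 EHP-101 replicate 3 lay among the other groups. Log2 fold changes against Ang II alone were -1.48 ± 0.42 for Cdca8, -0.99 ± 0.48 for Birc5 and -1.01 ± 0.46 for Aurkb, with edgeR adjusted p of 0.409, 0.731 and 0.672.

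Centromere and kinetochore genes fell into separate patterns. Cenpa, the histone H3 variant that marks centromeres, had 42.0, 32.0 and 36.6 CPM in the EHP-101 hearts, 35.5, 48.3 and 40.8 CPM in the losartan hearts, 30.8, 39.4 and 38.3 CPM in the Ang II hearts, and 36.2, 48.1 and 39.9 CPM in the Control hearts. Cenpf, a kinetochore protein whose loss in the mouse heart is known to impair cardiomyocytes, had 23.8, 14.5 and 12.2 CPM in the EHP-101 hearts, 28.4, 18.8 and 26.3 CPM in the losartan hearts, 20.4, 22.4 and 13.7 CPM in the Ang II hearts, and 29.6, 11.1 and 26.5 CPM in the Control hearts. All 4 groups overlapped for both genes. The log2 fold change of the EHP-101 group over the Ang II group was 0.03 ± 0.16 for Cenpa and -0.16 ± 0.34 for Cenpf, and both signs turned under some alternative settings. Per kilobase of exon, Cenpa was the most abundant of the 40 genes at 6.65 CPM per kb and Cenpf was next at 1.34, followed by Cdc20 at 1.03, Ccnb2 at 0.944 and Mki67 at 0.913. The other kinetochore genes were 4 that link microtubules to chromosomes, the motor Cenpe and the NDC80 complex subunits Ndc80, Nuf2 and Spc25, and their log2 fold changes were -1.09, -1.22, -1.58 and -0.98.

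All 6 spindle genes had an unadjusted p under 0.05 for EHP-101 against Ang II alone, where 5.11% of all genes were lower at that p, and in all 6 the libraries of these groups did not overlap, against 9.74% of all. Kif11, the motor that pushes the spindle poles apart, had 0.677, 2.43 and 2.19 CPM in the EHP-101 hearts, 2.32, 3.22 and 3.96 CPM in the losartan hearts, 2.92, 2.82 and 5.06 CPM in the Ang II hearts, and 1.92, 5.17 and 2.59 CPM in the Control hearts. Tpx2, which activates Aurora A on the spindle, had 0.677, 1.4 and 2.1 CPM in the EHP-101 hearts, 1.63, 2.89 and 3.96 CPM in the losartan hearts, 3.15, 2.82 and 5.1 CPM in the Ang II hearts, and 2.3, 5.87 and 3.21 CPM in the Control hearts. The lowest value of both genes was in EHP-101 replicate 1. Their log2 fold changes against Ang II alone were -1.03 ± 0.46 and -1.41 ± 0.46, with edgeR adjusted p of 0.661 and 0.468. Hmmr, a spindle assembly factor, had the lowest log2 fold change of the 40 genes, -2.12 ± 0.76. It had 0 reads in EHP-101 replicate 1, a count that allows up to 3 reads or 0.127 CPM. The microtubule binder Nusap1, the chromosome motor Kif4 and the microtubule depolymerase Kif2c had -0.69, -1.42 and -1.29.

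The central spindle and cytokinesis genes gave a similar picture, with 6 of 6 lower at an unadjusted p under 0.05, against 5.11% of all genes. Anln (anillin), the scaffold of the contractile ring, had 2.66, 3.97 and 3.63 CPM with EHP-101, 5.3, 5.52 and 3.54 CPM with losartan, 5.24, 3.49 and 9.74 CPM with Ang II alone, and 3.34, 4.79 and 3.38 CPM in the Control hearts. Prc1, which cross-links microtubules between the separating chromosomes, had 1.14, 1.68 and 2.41 CPM with EHP-101, 2.23, 3.18 and 4.76 CPM with losartan, 3.68, 3.41 and 6.22 CPM with Ang II alone, and 2.13, 5.44 and 3.21 CPM in the Control hearts. EHP-101 and Ang II libraries did not overlap for Prc1 and did for Anln, whose Ang II replicate 3 was far above the others. Kif20a, a motor needed for cytokinesis, had 1.1, 1.87 and 1.79 CPM with EHP-101, 2.51, 2.05 and 2.4 CPM with losartan, 2.96, 2.58 and 4.2 CPM with Ang II alone, and 2.34, 3.71 and 2.34 CPM in the Control hearts. Its 3 EHP-101 libraries were below every other library. Log2 fold changes against Ang II alone were -0.85 ± 0.33 for Anln, -1.35 ± 0.40 for Prc1 and -1.03 ± 0.28 for Kif20a. Racgap1 and Kif23, which form centralspindlin, had -1.32 ± 0.34 and -1.38 ± 0.41, and Ect2, the exchange factor that activates RhoA at the cleavage plane, had -1.76 ± 0.55. The adjusted p of these 6 genes in edgeR ran from 0.334 for Racgap1 to 0.585 for Anln.

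Ki-67 and topoisomerase IIα are proteins widely used to mark dividing cells. On GRCm38, Mki67 (ENSMUSG00000031004) lies at chr7:135689784-135716361 and Top2a (ENSMUSG00000020914) at chr11:98992943-99024189, both on the minus strand. Mki67, whose protein coats mitotic chromosomes, had 1.14, 5.66 and 6.44 CPM in the EHP-101 hearts, 7.48, 9.79 and 14.1 CPM in the losartan hearts, 9.42, 10.1 and 18.1 CPM in the Ang II hearts, and 6.93, 11.6 and 9.35 CPM in the Control hearts. Top2a, which untangles replicated DNA, had 1.02, 3.65 and 3.41 CPM in the EHP-101 hearts, 6.18, 6.69 and 8.31 CPM in the losartan hearts, 6.99, 7.14 and 13.8 CPM in the Ang II hearts, and 5.55, 11.2 and 6.47 CPM in the Control hearts. The highest EHP-101 library was below the lowest library of each other group for both genes. The EHP-101 group averaged 2.86-fold below the Ang II group for Mki67 (log2 fold change -1.51 ± 0.47) and 3.47-fold below for Top2a (-1.80 ± 0.42). Top2a had the smallest p of the 40 genes in this comparison, 0.000988 unadjusted and 0.328 adjusted in edgeR, and DESeq2 gave it an adjusted p of 0.0139. Ncapg, a condensin subunit, had -1.69 ± 0.52, with an adjusted p of 0.431.

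**Figure D3:**
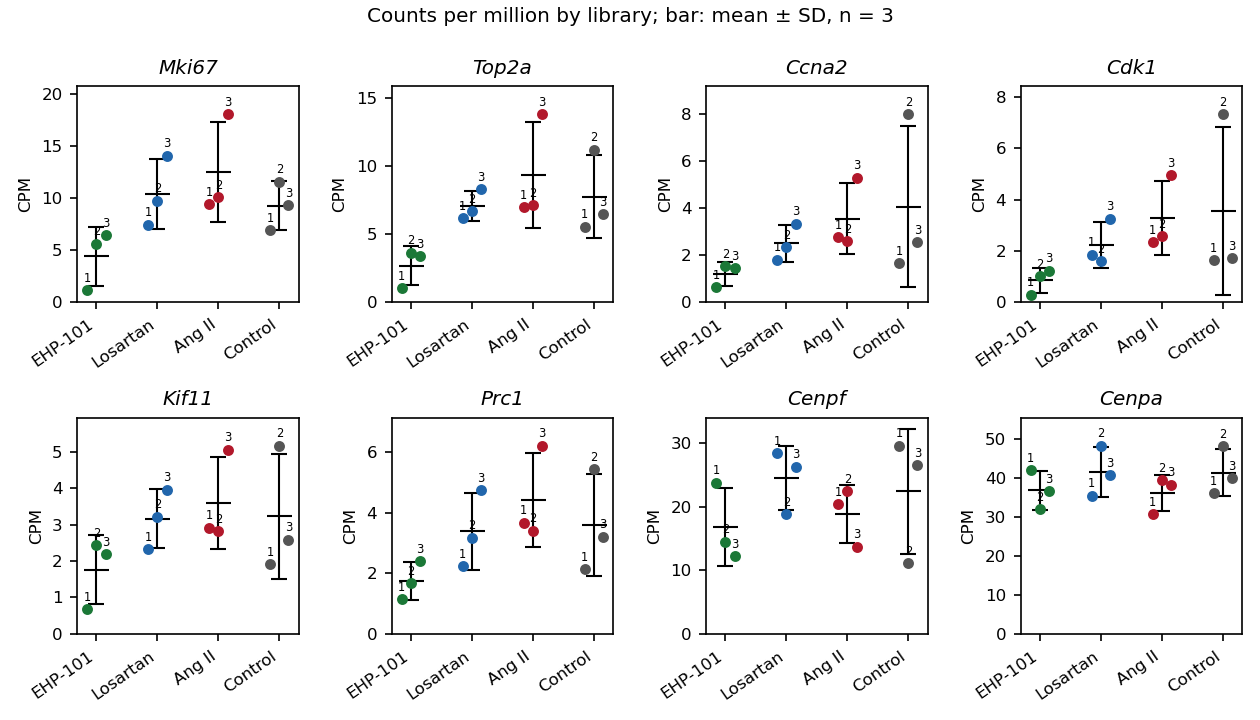
Level (CPM) of 8 genes in each library, with the replicate number above each point and black bars for the mean ± SD of 3 libraries. For Mki67, Top2a, Ccna2 and Cdk1 the 3 EHP-101 points lie below all other points, for Kif11 and Prc1 they overlap losartan or Control points, and for Cenpf and Cenpa the groups overlap throughout.

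Against losartan, the EHP-101 group was lower in log2 fold change for 40 of 40 genes, where 49.9% of all genes were, with a median of -0.92. EdgeR's quasi-likelihood test called 0 of the 40 and 0.0% of all genes, and DESeq2 and limma-voom also called 0 of the 40. At an unadjusted p under 0.05, 15 genes were lower, against 2.97% of all, and 0 were higher, against 3.07%. For 18 genes the EHP-101 libraries lay below without overlap, against 6.74%, and for 0 above, against 6.57%. A log2 fold change of -1 or less was found for 17 genes, against 1.25%. Top2a had the smallest p, with a log2 fold change of -1.40 ± 0.42 and an adjusted p of 0.622, followed by Cdca8 at -1.22 ± 0.43. Without EHP-101 replicate 1 the median was -0.59 and 3 genes had an unadjusted p under 0.05, and without losartan replicate 3 the values were -0.74 and 3 genes. These fits gave 1008 and 659 of all genes such a p, in either direction. The agents were given at different doses and by different routes, so the values stand side by side.

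Against the Control group, EHP-101 again gave negative log2 fold changes for 40 of 40 genes, against 54.1% of all, with a median of -1.16. In edgeR 0 of the 40 were called, against 0.398% of all genes (61 genes), 24 had an unadjusted p under 0.05 and were lower, against 8.15%, and 0 were higher, against 8.76%. For 17 genes the EHP-101 libraries lay below without overlap, against 10.4%, and for 0 above, against 10.7%. A log2 fold change of -1 or less was found for 26 genes, against 1.74%. Cdca8 had the smallest p, with 0.577 ± 0.247 CPM under EHP-101 and 1.93 ± 1.05 CPM in the Control group, a log2 fold change of -1.72 ± 0.43 and an adjusted p of 0.103. DESeq2 called 6 of the 40, namely Ccna2, Ccnb2, Cdk1, Top2a, Cdca8 and Racgap1, and limma-voom called 0. Among all genes DESeq2 called 492 and limma-voom 45. Control replicate 2 carried much of this difference. Without it the median was -0.71, 38 genes were below 0 and 7 had an unadjusted p under 0.05. Without EHP-101 replicate 1 the median was -0.83 and 11 genes had one. In these 2 fits 2165 and 2227 of all genes had such a p, in either direction.

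**Figure D4:**
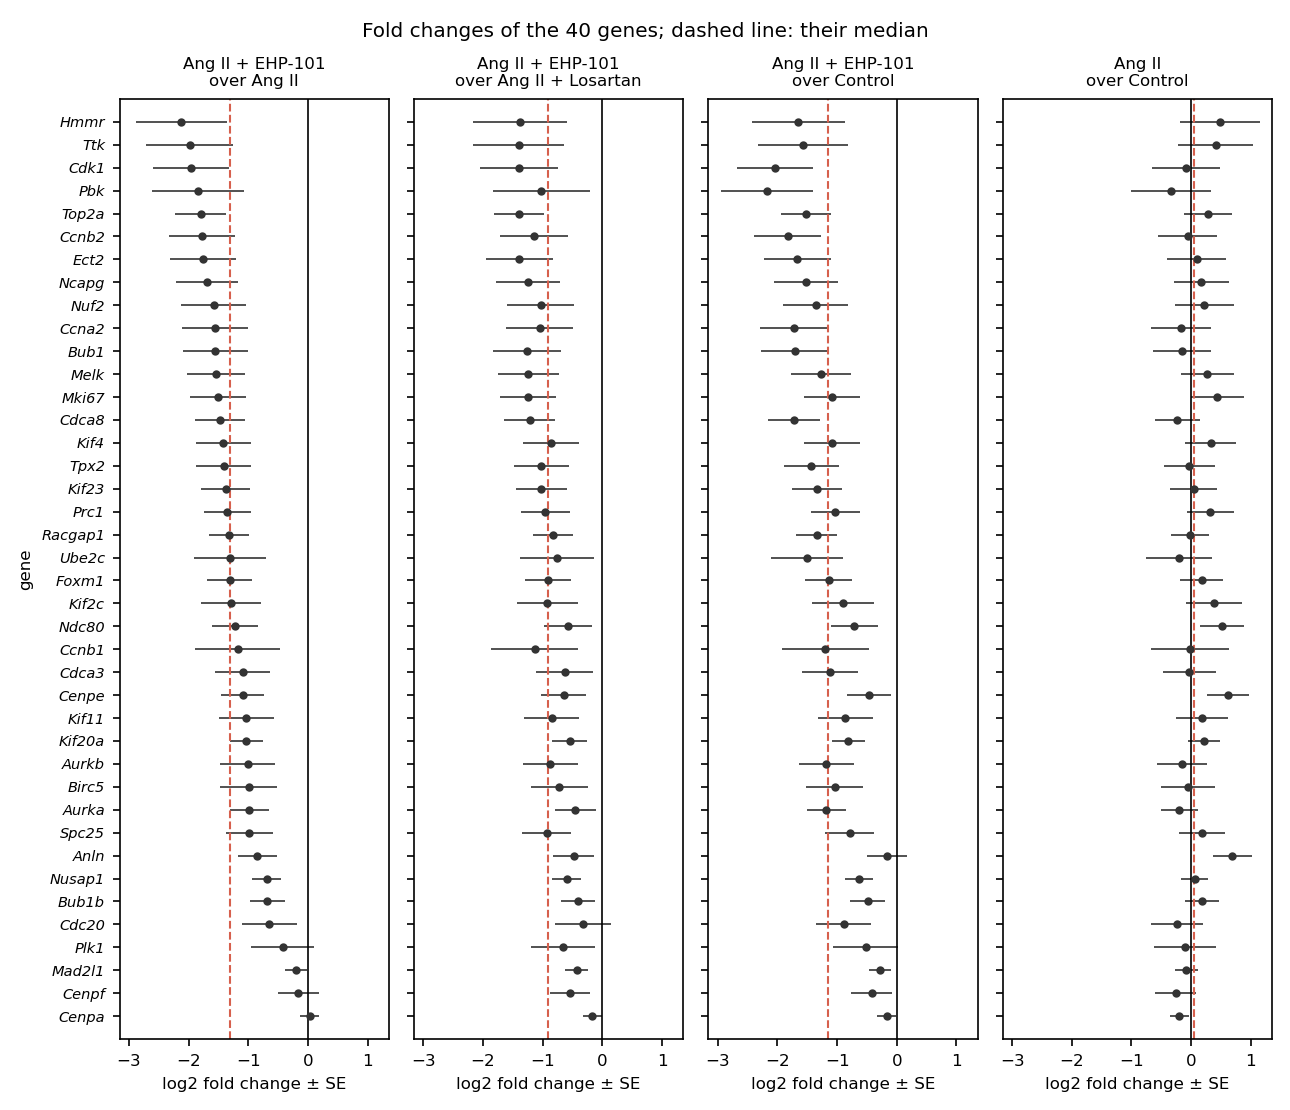
Log2 fold change ± SE of the 40 genes in 4 comparisons, with the first-named group over the second, the dashed line at the median of the 40 and genes in the order of the first panel. The medians are -1.31 for EHP-101 over Ang II, -0.92 for EHP-101 over losartan, -1.16 for EHP-101 over Control and 0.05 for Ang II over Control.

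The median gene was lower with losartan than with Ang II alone, and 0 of the 40 genes passed the test. Over Ang II alone, losartan had a negative log2 fold change for 36 of 40 genes, against 49.4% of all, with a median of -0.38 and a range of -0.82 to 0.38. EdgeR called 0 of the 40 and 0.0% of all genes, DESeq2 and limma-voom also called 0 of the 40, and in edgeR 0 had an unadjusted p under 0.05, against 6.14% of all genes lower and 2.26% higher. With an atrial marker score as a covariate in edgeR, 14 of the 40 were lower at that p. In limma-voom with quality weights 6 were lower and 1 was higher. Of all genes, 1294 and 3489 had such a p in these fits, in either direction. Aurka, Kif20a and Ube2c lay lower without overlap, against 10.5% of all genes, and 0 lay higher, against 9.22%. Kif20a had the smallest p, at 2.32 ± 0.241 CPM with losartan and 3.24 ± 0.848 CPM with Ang II alone, a log2 fold change of -0.49 ± 0.27 and an adjusted p of 0.682. Without Ang II replicate 3 the median was -0.07 and 25 genes were below 0. Over the Control group, 31 genes had a negative log2 fold change with losartan, against 52.8% of all. The median was -0.24, and it was 0.25 with 5 genes below 0 without Control replicate 2. Of the 40 genes 0 were called by edgeR, DESeq2 or limma-voom, against 0.0% of all genes in edgeR, and Aurka alone had an unadjusted p under 0.05 and was lower, against 5.16% of all, while 0 were higher, against 5.54%. With the atrial covariate 7 were lower at that p and 0 higher, and with quality weights 0 were lower and 2 higher. Of all genes, 3791 and 2757 had such a p in these fits, in either direction. No overlap was found for 0 genes in either direction, against 7.09% of all lower and 8.27% higher. Aurka had 1.09 ± 0.321 CPM with losartan and 1.83 ± 0.676 CPM in the Control hearts, a log2 fold change of -0.73 ± 0.32 and an adjusted p of 0.456.

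For Ang II alone against the Control group, the direction of the 40 genes depended on the setting. In edgeR with TMM scaling, of the 40 genes 21 had a log2 fold change above 0 and 19 below, where 50.1% of all genes were below, with a median of 0.05 and a range of -0.33 to 0.69. EdgeR called 0 of the 40, against 0.541% of all genes (83 genes), with 0 at an unadjusted p under 0.05 and 0 without overlap, against 9.09% of all genes higher and 8.53% lower at that p, and 12.3% higher and 10.3% lower without overlap. DESeq2 and limma-voom called 0 of the 40 as well. Anln had the smallest p, at 6.16 ± 3.23 CPM in the Ang II hearts and 3.84 ± 0.826 CPM in the Control hearts, a log2 fold change of 0.69 ± 0.33 and an adjusted p of 0.3. On the same 12 libraries, 9 genes lay below 0 in limma-voom, 5 with library size alone, 3 with the atrial covariate and 2 with quality weights, with medians of 0.20, 0.27, 0.43 and 0.75. The comparison also rested on single libraries. Without Control replicate 2 the median was 0.65, 38 genes lay above 0 and 4 had an unadjusted p under 0.05 and were higher. That fit gave 1937 of all genes such a p, in either direction. Without Ang II replicate 3, in contrast, the median was -0.23 and 30 genes lay below 0. Limma-voom with quality weights, which gave Control replicate 2 a weight of 0.112, called 8 of the 40 and 2617 of all genes. Ccna2, Ccnb1, Ccnb2, Foxm1, Cenpe, Prc1 and Anln were higher with Ang II and Cenpf was lower, at a log2 fold change of -0.75.

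In the test of any difference among the 4 groups, edgeR called 0 of the 40 genes, against 0.189% of all genes (29 genes). An unadjusted p under 0.05 was found for 17 of the 40, against 13.1% of all. Top2a had the smallest, 0.00696, with an adjusted p of 0.23, and Racgap1 was next at 0.00722. DESeq2 called Top2a, Cdca8 and Racgap1, limma-voom called 0, and limma-voom with quality weights called 26 of the 40. Among all genes these fits called 567, 22 and 1977, in that order.

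The genes varied together from library to library. The summed level of all 40 was 91.6, 98.1 and 104.0 CPM in the EHP-101 hearts, 135.0, 145.0 and 163.0 CPM in the losartan hearts, 135.0, 145.0 and 196.0 CPM in the Ang II hearts, and 130.0, 206.0 and 139.0 CPM in the Control hearts. The EHP-101 sums were below the other 9, and the Ang II and Control groups each held 1 library far above its others. Group means were 97.9 ± 6.2 CPM for EHP-101, 148.0 ± 14.2 CPM for losartan, 159.0 ± 32.7 CPM for Ang II and 158.0 ± 41.5 CPM for Control (SD, n = 3 each). Cenpa and Cenpf make up much of these sums. Without them and Mad2l1, which were left out after their values were seen because they varied little or otherwise, the group means of the other 37 genes were 40.5 ± 15.9 CPM for EHP-101, 76.6 ± 13.6 CPM for losartan, 99.1 ± 34.6 CPM for Ang II and 89.7 ± 44.7 CPM for Control, given as a description only. Over the 780 gene pairs the median Pearson correlation of log2 CPM across the 12 libraries, which share their scaling, was 0.84, and it was 0.76 after each group's mean was removed. The same was not computed over all tested genes, so whether other genes vary together as closely is not known. For 36 genes the median correlation with the others was over 0.7, with Cdk1 highest at 0.93. The 4 others were Mad2l1 at 0.63, Anln at 0.61, Cenpa at 0.23 and Cenpf at -0.31. Within groups Cenpf reached -0.81, being high in EHP-101 replicate 1 and low in Control replicate 2 and Ang II replicate 3.

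**Figure D5:**
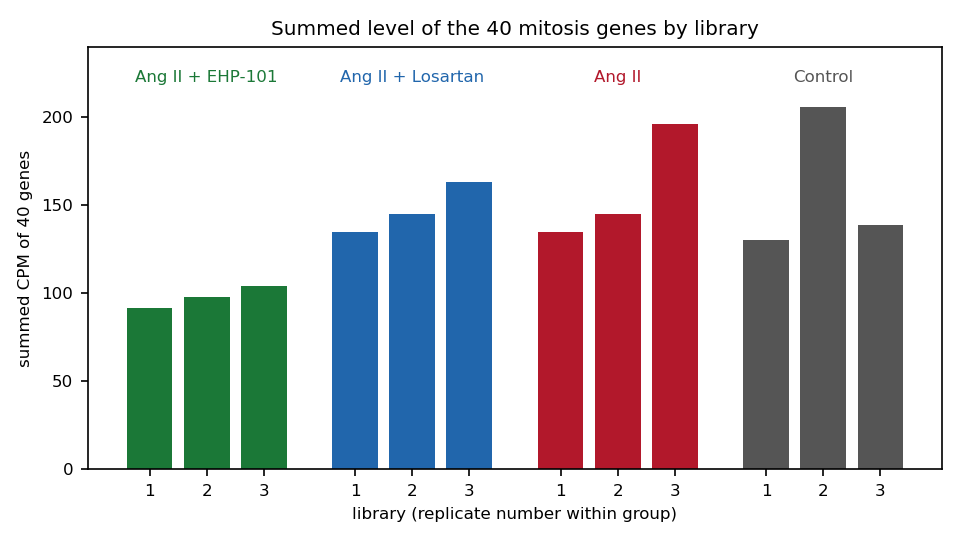
Summed level (CPM) of the 40 mitosis genes, as 1 bar per library. The 3 EHP-101 bars, 91.6 to 104.0 CPM, are lower than the other 9, and the tallest are Control replicate 2 at 206.0 CPM and Ang II replicate 3 at 196.0 CPM.

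Other cell-cycle genes were read from 3 lists. Of 60 other mitosis genes 54 were tested, and for EHP-101 against Ang II alone 0 were called, 31 were lower at an unadjusted p under 0.05 and the median log2 fold change was -0.90. Iqgap3, a scaffold protein of proliferating cells, had 0.998 ± 0.464 CPM under EHP-101 and 4.02 ± 1.36 CPM with Ang II alone, with a log2 fold change of -2.01 ± 0.37 and an adjusted p of 0.291 in edgeR. Cdca5 (sororin), which protects sister chromatid cohesion, had -2.15 ± 0.48 and an adjusted p of 0.312. Of 39 tested genes of S phase and DNA replication, 0 were called, 14 were lower at an unadjusted p under 0.05 and the median was -0.37. Of 32 tested G1 regulators, CDK inhibitors and E2F, RB or DREAM genes, 0 were called, 0 were lower at that p and the median was -0.11. Over all tested genes 5.11% were lower at that p.

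Against the Control group, 2 of the 39 genes of DNA replication were called lower under EHP-101 in edgeR, where 0.398% of all genes were called, and neither call held under every setting. A negative log2 fold change was found for 37 of the 39, against 54.1% of all genes. At an unadjusted p under 0.05, 19 were lower, against 8.15% of all. Mcm2, a subunit of the replicative helicase, was at 5.42 ± 0.729 CPM in the EHP-101 hearts and 13.1 ± 2.1 CPM in the Control hearts, with a log2 fold change of -1.27 ± 0.22 and an adjusted p of 0.0338. Mcm5, another subunit, was at 3.03 ± 0.503 CPM in the EHP-101 hearts and 7.72 ± 1.95 CPM in the Control hearts, with a log2 fold change of -1.34 ± 0.25 and an adjusted p of 0.0424. Both calls were lost with library size alone, at an adjusted p of 0.0585 for Mcm2 and 0.0675 for Mcm5, and with only the 2 groups compared, at 0.0821 and 0.159. Mcm5 was also lost in limma-voom, at 0.0596, and with the replicate block, at 0.0535. Both calls were also lost without any 1 of the EHP-101 or Control libraries. With each of the 12 libraries left out in turn, the adjusted p ran from 0.0142 to 0.127 for Mcm2 and from 0.0426 to 0.154 for Mcm5. The median of the 39 replication genes was -0.40, that of the 54 mitosis genes -0.78 with 0 called, and that of the 32 G1 genes -0.18 with 0 called. Whether these medians differ was not tested.

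Markers of several immune cell types had lower summed levels in the EHP-101 hearts than in the Ang II hearts, and some overlapped the Control hearts. The 12 macrophage and monocyte markers summed to 224 to 422 CPM with EHP-101, 355 to 509 CPM with losartan, 481 to 644 CPM with Ang II alone and 443 to 605 CPM in the Control hearts. For EHP-101 against Ang II alone, 0 of them were called and 7 were lower at an unadjusted p under 0.05, and their median was -0.67 (log2 fold change). The 10 markers of dendritic cells and antigen presentation summed to 150 to 159 CPM with EHP-101, 187 to 215 CPM with losartan, 278 to 429 CPM with Ang II alone and 166 to 261 CPM in the Control hearts, with 0 called, 8 lower and a median of -1.12. Among 8 B cell markers 0 were called and 5 were lower at an unadjusted p under 0.05, with a median of -1.08, and among 5 tested mast cell markers 0 were called and 4 were lower at that p, with a median of -1.27, where 5.11% of all genes were. The mast cell markers summed to 7.01 to 12 CPM with EHP-101, 14.0 to 20.1 CPM with Ang II alone and 7.53 to 13.3 CPM in the Control hearts. Of 5 tested T and NK cell markers 0 were lower at that p, with sums of 2.16 to 4.42 CPM with EHP-101, 4.69 to 7.27 CPM with Ang II alone and 3.09 to 3.98 CPM in the Control hearts. Of 6 tested neutrophil markers 2 were lower at that p, with sums of 4.38 to 14.7 CPM with EHP-101, 9.76 to 15.5 CPM with Ang II alone and 6.09 to 12 CPM in the Control hearts. Endothelial markers summed to 1310 to 1560 CPM with EHP-101 and 1440 to 1550 CPM with Ang II alone, with a median of -0.13, and fibroblast markers had a median of -0.27. Against the Control group, the EHP-101 median was -0.60 for the macrophage and monocyte markers and 0.15 for those of dendritic cells and antigen presentation. With losartan against Ang II alone, the medians were -0.55 for macrophage and monocyte markers and -0.67 for those of dendritic cells and antigen presentation. They were -0.36 for B cell, -0.71 for mast cell, -0.52 for T and NK cell and -0.30 for neutrophil markers. Endothelial markers had a median of -0.01 in that comparison and fibroblast markers one of -0.82. No gene of these lists was at 0 in all libraries. The part of these cell types in the levels of the mitosis genes was not tested.

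Atrial markers varied widely, with summed levels of 609 to 1250 CPM with EHP-101, 113 to 2290 CPM with losartan, 1700 to 3040 CPM with Ang II alone and 359 to 2050 CPM in the Control hearts. An atrial marker score was also used as a covariate in edgeR. The median log2 fold change of the 40 genes was then -1.67 for EHP-101 against Ang II alone. For losartan against Ang II alone it was -0.84. For EHP-101 against losartan it was -0.74, against -0.92 without the covariate. In that comparison 9 of the 40 were lower at an unadjusted p under 0.05, against 15 without the covariate. Among all genes 1091 had such a p with it and 927 without it, in either direction. In the comparison of EHP-101 with Control 2 of the 40 genes passed, Cdca8 and Racgap1, and 324 of all genes were called.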

How the data were processed

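Read counts per gene in 12 heart libraries were used as deposited by the authors, with no normalisation. Per the labels' protocols, RNA was extracted with Qiazol and 300 ng per sample went into TruSeq v2 poly(A) libraries, which keep no strand, for single-end reads of 50 bp. The submitters' processing notes name fastp 0.20.0, HISAT2 2.1.0, featureCounts 2.0.0, edgeR 3.30.0 and GRCm38. Symbols were found for 47224 of 47729 genes, and positions came from GENCODE M21. Groups were taken from the sample titles.

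These counts entered edgeR 4.0.16 (R 4.3.3). Following filterByExpr and TMM scaling, the 12 libraries shared 1 robust quasi-likelihood model with 4 group means, and 15336 genes were tested, two-sided, with Benjamini-Hochberg adjustment and a threshold of 0.05. The SE is the absolute log2 fold change divided by the square root of the F statistic and restates that test. The method was tested on simulated data. Depth was even, and a count of 0 was taken to allow up to 3 counts, which covers counting error only.

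The members and lists were chosen with earlier results of these data known. Named in full are the 2 most abundant genes of each role and the gene with the smallest p in each comparison; promoters were chosen later. The settings also tried were DESeq2 1.42.0, limma-voom (limma 3.58.1) with and without quality weights, scaling by RLE or by library size alone, no filter, a mean of at least 1 CPM, a replicate block, an atrial covariate, only the 2 groups compared, and each library left out. The counts of genes lowest under EHP-101 with a library left out were chosen after seeing the data, as were the values for Mcm2 and Mcm5 under these settings.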

Additional observations from a re-analysis of the deposited data

How the results depend on the processing

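For genes called, edgeR on all 12 libraries gave 0 for EHP-101 against Ang II, where DESeq2 gave 60, no filter 10 and only the 2 groups 3. For EHP-101 against losartan it gave 0, where DESeq2 gave 25, quality weights 1 and no filter 3. For EHP-101 against Control it gave 61, where library size alone gave 22, DESeq2 492, quality weights 477, no filter 158, the replicate block 36, the atrial covariate 324 and only the 2 groups 14. For losartan against Ang II it gave 0, where DESeq2 gave 108, quality weights 598, no filter 30 and only the 2 groups 1, and for losartan against Control 0, where DESeq2 gave 22 and quality weights 3. For Ang II against Control it gave 83, where DESeq2 gave 505, limma-voom 51, quality weights 2617, no filter 167 and only the 2 groups 20. For any difference it gave 29, where library size alone gave 14, DESeq2 567, quality weights 1977, no filter 189, the replicate block 9 and the atrial covariate 47. The cause of these differences was not tested.

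Of the 40 genes 0 were called in edgeR. DESeq2 called 1 for EHP-101 against Ang II, 6 for EHP-101 against Control and 3 for any difference. No filter and the atrial covariate each called 2 for EHP-101 against Control, and quality weights called 8 for Ang II against Control and 26 for any difference. The median of the 40 was -0.84 for losartan against Ang II with the atrial covariate, and with quality weights 0.26 for losartan against Control and 0.75 for Ang II against Control. Cenpa, at 0.03 for EHP-101 against Ang II, was -0.11 with library size alone and ran from -0.07 (without Ang II replicate 1 or EHP-101 replicate 1) to 0.12 with a library left out. Cenpf, at -0.16, was 0.03 with quality weights, 0.00 with the atrial covariate and ran from -0.50 to 0.03 (without EHP-101 replicate 3) with a library left out. Library size alone moved the median of all genes by -0.15 for EHP-101 against Ang II.

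With each library left out in turn, genes called ran from 0 to 0 for EHP-101 against Ang II, 0 to 2 against losartan and 5 to 62 against Control. They ran from 0 to 3 for losartan against Ang II, 0 to 0 for losartan against Control, 8 to 151 for Ang II against Control and 3 to 31 for any difference. Of the 40 genes 0 were called in each case. Their medians ran from -1.52 to -1.03 for EHP-101 against Ang II, -1.17 to -0.59 against losartan and -1.47 to -0.71 against Control. They ran from -0.53 to -0.07 for losartan against Ang II, -0.46 to 0.25 for losartan against Control and -0.23 to 0.65 for Ang II against Control. Between 37 and 40 genes were lowest by mean under EHP-101, and 13 to 25 lay below all other libraries.

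Same-numbered libraries correlated in their deviations from the group means at -0.327 to 0.33, and differently numbered ones at -0.374 to 0.315. No pairing by number was seen, but these values cannot exclude one. The replicate block called 36 genes for EHP-101 against Control and 9 for any difference, and 0 of the 40 genes in any comparison. Depth limits the rarest genes most. Ccnb1, the lowest of the 40, had 153 reads in all 12 libraries.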

Other observations

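Smc4, a condensin subunit from the list of other mitosis genes, had 27.7 ± 2.4 CPM in the Ang II hearts and 19.0 ± 2.93 CPM in the Control hearts, with a log2 fold change of 0.54 ± 0.14 and an adjusted p of 0.118 in edgeR, and losartan hearts had 27.8 ± 3.75 CPM (SD, n = 3 each).

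Cdkn2b, which encodes the CDK4 and CDK6 inhibitor p15, had 0.36 ± 0.0304 CPM in the losartan hearts and 1.13 ± 0.382 CPM in the Ang II hearts, with a log2 fold change of -1.64 ± 0.44 and an adjusted p of 0.316 in edgeR. In the EHP-101 hearts it had 0.741 ± 0.363 CPM and in the Control hearts 0.551 ± 0.216 CPM.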
